A study of Mus musculus with 3 samples.

Results

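The arrays compared here carried RNA of Lhx6-GFP+ cells sorted from the medial ganglionic eminence (MGE) of mouse embryos, called MGE-GFP+ below, and of Lhx6-GFP- cells sorted from differentiated mouse embryonic stem (ES) cells, called ES-GFP- below. They are 2 of the 3 arrays of the series, with 1 array on each side. A gene was included when at least 1 of its probes was brighter, on at least 1 of the arrays, than the 95th percentile of the non-mouse control probes printed there (adenoviral E1A and ERCC spike-in sequences). This held for 11598 of the 20141 genes named on the array, after 815 genes on chromosomes X and Y were left out because the labels give the MGE sample as female and the ES sample as male.

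MGE-GFP+ cells came from embryos at E12.5 on a CD1 background carrying an Lhx6-GFP BAC, a large genomic transgene whose fluorescence follows the Lhx6 regulatory sequences, and were sorted as GFP positive. ES-GFP- cells came from J14, a line of 129S4/SvJae ES cells with the same kind of transgene and, per the labels, a 692-mCherry enhancer-reporter virus, and were sorted as GFP negative after 12 days of a protocol meant to yield MGE cells. In that protocol aggregates received Dkk-1, an inhibitor of Wnt signalling, at 100 ng/ml, and from day 3 SAG, an agonist of the hedgehog receptor component Smo, at 6 nM. The ES aggregates were dissociated with a neural tissue kit in the presence of a Rock inhibitor and dead cells were removed with Sytox Blue, while the MGE was dissociated with trypsin. Thus reporter state, strain, sex, tissue of origin, culture and dissociation all differ between the arrays and cannot be told apart, J14 is a single line, and the number of embryos behind the MGE array is not given in the sources used here.

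The MGE is a transient swelling of the embryonic ventral forebrain. Its progenitors are marked by Nkx2-1, and their postmitotic daughters switch on Lhx6 and either migrate as future cortical interneurons that use the transmitter GABA, or settle in the ventral forebrain as projection neurons of the globus pallidus or as cholinergic neurons, for which Lhx8 is required. A GFP-negative fraction of an ES culture holds whatever else the aggregates contain, which can include progenitors, glia and neurons of other brain regions.

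The MGE-GFP+ array was the dimmer of the arrays, with a median intensity of 96.2 compared with 174 in ES-GFP-, and 77.1% compared with 80.3% of the 55681 probes were well above background by the scanner software's call. Intensities were put on 1 scale by taking log2 and subtracting each array's 75th percentile, so that Cort, which encodes a somatostatin-like peptide and had an intensity of 718 on the MGE-GFP+ array and 716 on the ES-GFP- array, has a log2 difference of 0.55. The 95th percentile of the 106 control probes was an intensity of 152 on the MGE-GFP+ array and 208 on the ES-GFP- array, and a gene at or under it is described as within the control range. Values with the control floor are those after dimmer probes on each array were raised to its limit. A gene with a probe that was not well above background on an array is given a bound, written "at least". With 1 array per side there is no replicate error and no test. The SD among repeat spots of the same probe was 0.144 in MGE-GFP+ and 0.142 in ES-GFP- on the log2 scale, which gives 0.20 for a difference, so that 2 SDs are 1.32-fold. This covers printing and reading of the array and not embryos, cultures, sorts or RNA amplification. In RNA from sorted populations, fewer cells of a type and less RNA per cell cannot be told apart.

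A total of 215 of the 11598 genes (1.85%) were at least 4-fold higher in MGE-GFP+ than in ES-GFP- cells, and 852 (7.35%) were at least 4-fold lower, 9.2% in either direction. By sign alone 52.4% of the included genes were higher and 47.6% lower. The 4-fold counts of each list below are to be set beside these shares of 1.85% and 7.35%. The lower side also reached further, with 204 genes at least 16-fold lower and 14 at least 16-fold higher. Of the 852 lower genes, 659 were within the control range on the MGE-GFP+ array and 193 were above the controls on both arrays, while of the 215 higher genes 127 were above the controls on both. This balance depended on the scaling, since scaling to the 50th percentile gave 366 higher and 703 lower genes and shifted the median log2 difference of all included genes from 0.05 to 0.35. At a 2-fold limit 1313 genes (11.3%) were higher and 1822 (15.7%) lower, and for 7230 genes (62.3%) the difference passed 2 SDs of the repeat spots. Across genes, which are not independent replicates, the log2 levels deposited by the authors had a Pearson correlation of 0.865 between the arrays, and 10825 genes (93.3%) had the same sign of difference in those values.

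**Figure D1:**
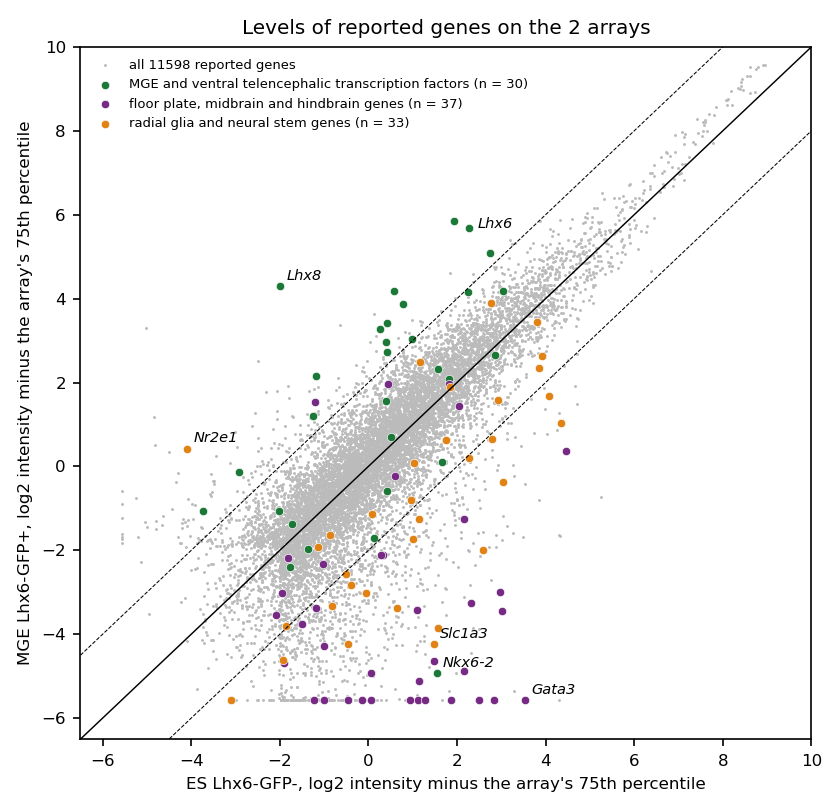
Each point is 1 of the 11598 included genes, with its level in ES-GFP- cells on the horizontal axis and in MGE-GFP+ cells on the vertical axis, both as log2 intensity minus the array's 75th percentile. The solid line marks equal levels and the dashed lines a 4-fold difference. Lhx8 and Lhx6 stand above the upper dashed line, and most of the floor plate, midbrain and hindbrain genes lie under the lower one, many of them on the bottom edge of points where the MGE-GFP+ array had no signal well above background.

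**Figure D2:**
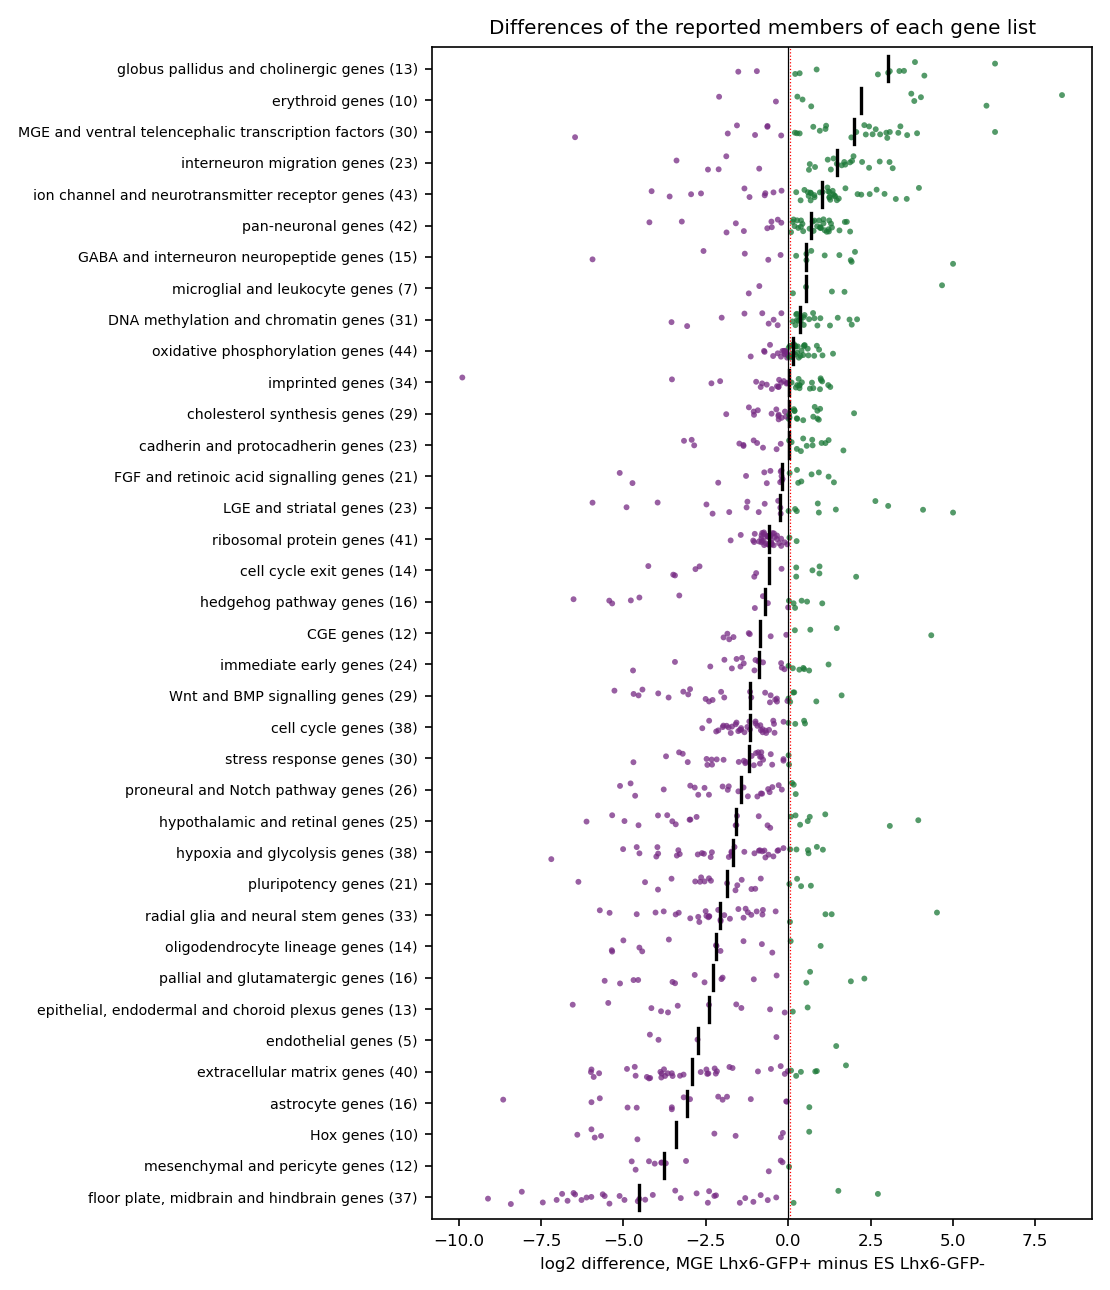
Each row is a gene list and each point an included member, placed by its log2 difference, MGE-GFP+ minus ES-GFP-, with the number of included members in parentheses. Black bars are list medians and the dotted line is the median over all included genes, 0.05. Medians run from 3.04 for globus pallidus and cholinergic genes to -4.51 for floor plate, midbrain and hindbrain genes.

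The gene that drives the sort was higher in the sorted MGE cells, but its probes did not give the same size. Lhx6, the LIM homeobox factor of postmitotic MGE neurons, had an intensity averaged over its 3 probes of 29403 in MGE-GFP+ and 4061 in ES-GFP- cells, a 10.6-fold difference. The probe for the transcript NM_001083125 read 10244 and 399, and was 37.6-fold higher. A probe for NM_008500 read 25391 and 1374 and was 27.1-fold higher, while the other probe of that accession was bright on both arrays, at 97733 and 122190, and was 1.17-fold higher. With the brightest probe alone, the difference of Lhx6 would therefore be under 2 SDs of the repeat spots.

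Transcription factors of the MGE and ventral telencephalon were mostly higher in MGE-GFP+ cells. Of 31 genes listed, 30 were included and 23 of these were higher, 15 of them at least 4-fold, beside 1.85% of all included genes, and 1 was at least 4-fold lower. The median log2 difference was 1.99, or 1.64 with the control floor, compared with 0.05 over all included genes. Sox6, which acts downstream of Lhx6 in interneuron maturation, had an intensity of 10468 in MGE-GFP+ and 1254 in ES-GFP- cells, a 12.2-fold difference. Nkx2-1, the factor that sets MGE identity, read 8371 and 1444 and was 8.49-fold higher. Both genes were above the control range on both arrays, so ES-GFP- cells gave clear signal for each of them at a lower level.

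The Dlx genes, homeobox factors of all ganglionic eminences that drive GABAergic differentiation, shared this direction with unequal sizes. Dlx2 read 6124 in MGE-GFP+ and 1137 in ES-GFP- cells, 7.89-fold higher. Dlx5 was 5.91-fold, Dlx1 5.12-fold and Dlx6 4.19-fold higher, and the antisense transcript Dlx6os1 was 10.1-fold higher. Maf, a large Maf factor of migrating MGE interneurons, was 5.49-fold higher, and Satb1, which promotes somatostatin interneuron maturation, was 3.78-fold higher. Mef2c and Sp9 were 6.92-fold and 6.31-fold higher but within the control range in ES-GFP- cells, and with both arrays floored at their controls these values become 3.72-fold and 1.93-fold.

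Not every gene on the list went that way. Nkx6-2, a homeobox factor of the ventricular zone at the boundary of the MGE and LGE and of the ventral hindbrain and spinal cord, read 18.9 in MGE-GFP+ and 2451 in ES-GFP- cells, 88.4-fold lower, or 11.0-fold lower with the control floor. Otx2, a factor of rostral and ventral progenitors, was 2.94-fold lower and Lmo1 2.01-fold lower.

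**Figure D3:**
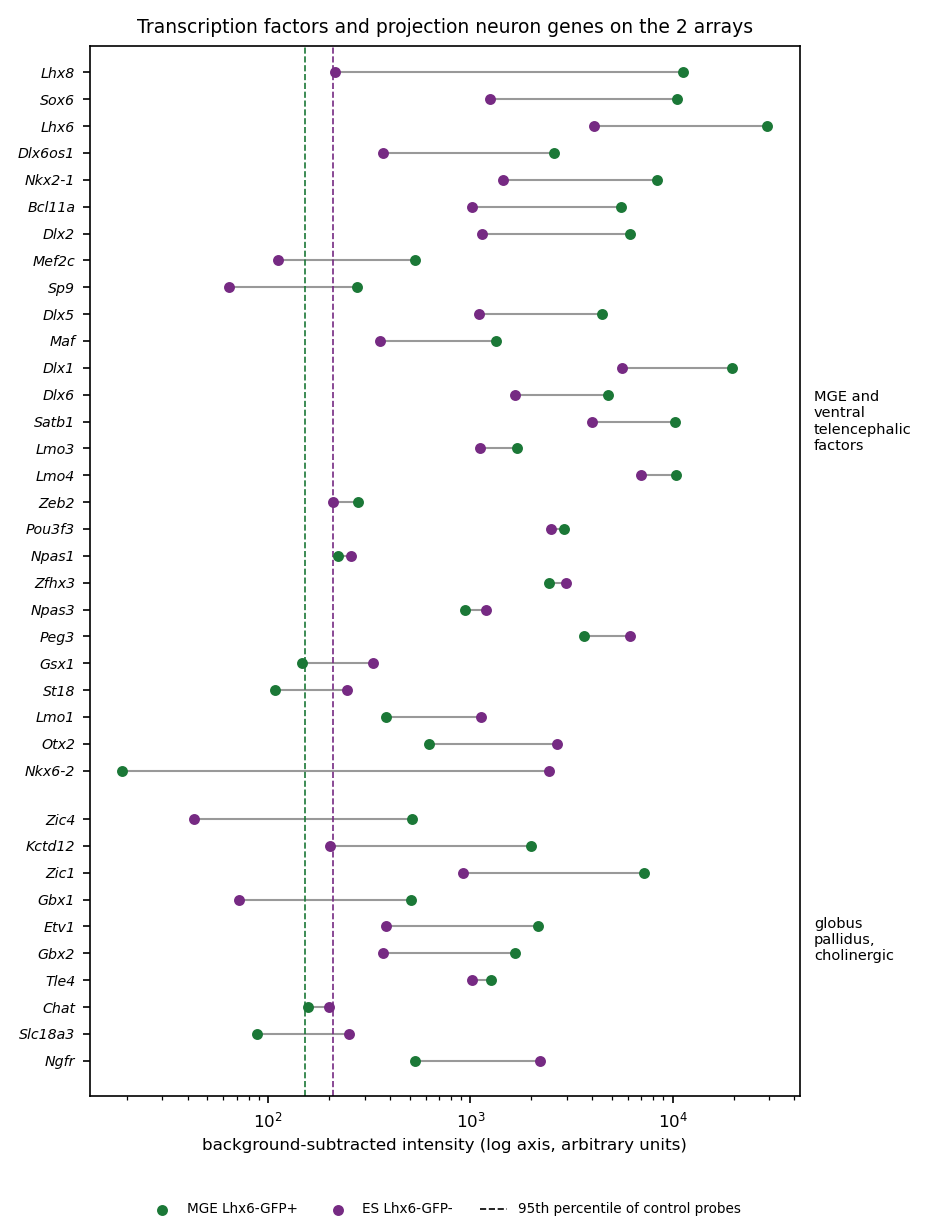
Each row is a gene, with its intensity on the MGE-GFP+ array in green and on the ES-GFP- array in purple on a log axis, and the dashed lines are the 95th percentiles of the control probes of each array. Raw intensities are shown, so a pair of equal values corresponds to a log2 difference of 0.55 after scaling. Lhx8 has the widest gap of the genes higher in MGE-GFP+, from 213 to 11295, and Nkx6-2 the widest in the other direction. A few included members are not drawn.

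Genes of ventral forebrain projection neurons were mostly higher in MGE-GFP+ cells. Of 19 globus pallidus and cholinergic genes listed, 13 were included, 11 were higher in MGE-GFP+ cells and 8 were at least 4-fold higher, with a median log2 difference of 3.04. The median was 1.86 with the control floor and 2.17 with the brightest probe of each gene. Lhx8, needed for forebrain cholinergic neurons, read 11295 in MGE-GFP+ and 213 in ES-GFP- cells, which is 77.7-fold higher. The ES-GFP- value was just above the control limit of 208. Zic1, a zinc-finger factor of the septum and ventral MGE, read 7181 and 919 and was 11.4-fold higher, and its neighbour in the family Zic4 was 17.6-fold higher with an ES-GFP- value of 43.0 inside the control range. Etv1 read 2145 and 383, and was 8.2-fold higher. Gbx2 and Gbx1, homeobox factors of the MGE mantle, were 6.61-fold and 10.4-fold higher, the latter from probes that gave 31.6-fold and 3.41-fold. Kctd12 was 14.4-fold higher with an ES-GFP- intensity of 203 within the control range.

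The genes of the cholinergic transmitter itself did not share these differences. Chat, which makes acetylcholine, read 158 and 199.6, close to the control limit on both arrays. Slc18a3, the vesicular acetylcholine transporter, read 88.4 in MGE-GFP+, within the control range, and 249.9 in ES-GFP- cells. Ngfr, the low-affinity neurotrophin receptor of basal forebrain cholinergic neurons, read 530.4 and 2217 and was 2.85-fold lower in MGE-GFP+ cells.

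Neighbouring forebrain regions gave a mixed picture. Of 32 LGE and striatal genes listed, 23 were included, 4 were at least 4-fold higher and 5 at least 4-fold lower in MGE-GFP+ cells, and the median was -0.24, or 0.07 after scaling to the 50th percentile. Over all included genes the 4-fold shares were 1.85% higher and 7.35% lower. Bcl11b (Ctip2), a factor of striatal and deep cortical projection neurons, read 1986 in MGE-GFP+ and 170.3 in ES-GFP- cells, 17.1-fold higher, and Foxp2 was 6.27-fold higher. The mean ES-GFP- intensity of Bcl11b was under the control limit of 208. With the control floor the log2 difference went from 4.09 to 3.57 for Bcl11b and from 2.65 to 1.73 for Foxp2. Meis2, a factor of the LGE, read 429.8 and 9800 and was 15.6-fold lower. Ebf1, of early striatal neurons, was 5.58-fold lower and Zfp503 (Nolz1) 30.0-fold lower, the latter within the control range in MGE-GFP+ cells. The list thus split into members that were far higher and far lower.

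Among 14 genes of the caudal ganglionic eminence listed, 12 were included, 1 was at least 4-fold higher, 0 were at least 4-fold lower, and the median was -0.85, or -0.29 with the control floor. Prox1, a factor of CGE interneurons, read 817 and 3777 and was 3.16-fold lower in MGE-GFP+ cells, and Nr2f2 (COUP-TFII) was 2.29-fold lower. Scgn, a calcium-binding protein, read 246 in MGE-GFP+ cells and was not well above background in ES-GFP- cells, at least 20.3-fold higher. Its level lay above the control limit on the MGE-GFP+ array alone.

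Genes of the pallium and of glutamatergic neurons were mostly lower in MGE-GFP+ cells. Of 27 listed, 16 were included, 12 were lower and 9 of these at least 4-fold, all 9 within the control range on the MGE-GFP+ array. The median of -2.28 became -0.50 with the control floor, and 0.67 over the 3 genes above the controls on both arrays. Neurog2, a proneural factor of glutamatergic progenitors, read 20.7 in MGE-GFP+ and 1043 in ES-GFP- cells, 34.4-fold lower. Slc17a6 (VGLUT2), the vesicular glutamate transporter of subcortical and brainstem neurons, read 151 and 902 and was 4.07-fold lower. In the other direction, Tbr1, a factor of early cortical projection neurons, read 586 and 173 and was 4.97-fold higher, with its ES-GFP- intensity under the control limit of 208.

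The enzymes of GABA synthesis were higher in MGE-GFP+ cells, and the peptides differed among themselves. Of 21 GABA and interneuron neuropeptide genes listed, 15 were included, with 10 higher, a median of 0.55, and 2 at least 4-fold different in each direction. Among all included genes 1.85% were that much higher and 7.35% that much lower. Gad1, a glutamate decarboxylase, read 10376 in MGE-GFP+ and 4071 in ES-GFP- cells, 3.73-fold higher. Gad2 was 3.81-fold and the vesicular GABA transporter Slc32a1 2.16-fold higher. All of these were above the control range in ES-GFP- cells too, with 6024 for Gad2 and 3546 for Slc32a1.

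Sst, the peptide of a main class of MGE interneurons, read 9065 in MGE-GFP+ and 4519.5 in ES-GFP- cells, 2.94-fold higher. Npy read 9410 and 8474, 1.63-fold higher. Far wider gaps were found for peptides of projection neurons. Tac1, the precursor of substance P, read 3276 in MGE-GFP+ and 149 in ES-GFP- cells, 32.1-fold higher, the ES-GFP- value being within the control range. Penk, the enkephalin precursor, went the other way, with 185 and 16601, 61.2-fold lower and above the control range on both arrays. Cck was 5.93-fold lower, within the control range in MGE-GFP+ cells.

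Receptors that guide migrating interneurons were mostly higher in MGE-GFP+ cells. Of 29 migration genes listed, 23 were included, 18 were higher, 5 at least 4-fold and 3 at least 4-fold lower, with a median of 1.48. Robo1, a Slit receptor, read 2077 in MGE-GFP+ and 360.5 in ES-GFP- cells, 8.44-fold higher, and Robo2 was 4.74-fold higher. Plxna2, a semaphorin coreceptor, was 6.86-fold, Erbb4, the neuregulin receptor of migrating interneurons, 3.84-fold, and the neuropilins Nrp1 and Nrp2 3.33-fold and 2.78-fold higher. The Slit ligands were on the other side: Slit2 read 612 and 3292, 3.67-fold lower, and Slit1 was 10.5-fold lower, within the control range in MGE-GFP+ cells. Cxcr4, the chemokine receptor of tangentially migrating interneurons and of many other cells, read 2101 in MGE-GFP+ and 13271 in ES-GFP- cells and was 4.31-fold lower.

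Both populations carried abundant neuronal RNA. Of 43 pan-neuronal genes listed, 42 were included, 32 were higher in MGE-GFP+ cells, 0 were at least 4-fold higher and 2 at least 4-fold lower, with a median of 0.70. The 4-fold shares over all included genes were 1.85% higher and 7.35% lower. Tubb3, the neuronal tubulin, read 34729 and 26007, 1.96-fold higher, and Stmn2 read 14786 and 12685, 1.71-fold higher. Map2, a dendritic microtubule protein, was 3.68-fold higher. The genes on the lower side included those of secretory granules and neurofilaments: Chgb (chromogranin B) read 1611 and 22086, 9.36-fold lower, Scg2 was 3.66-fold and Nefl 3.01-fold lower, and Sncg was 18.5-fold lower with an MGE-GFP+ value within the control range.

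Ion channels and transmitter receptors showed more spread than the general neuronal genes. Of 65 listed, 43 were included, 33 were higher and 8 at least 4-fold, with 4 at least 4-fold lower and a median of 1.04, or 0.75 with the control floor. Beside them, 1.85% of all included genes were at least 4-fold higher and 7.35% at least 4-fold lower. The lower count is near that share and is not read as a result about the list. Gabra2, a subunit of the GABA-A receptor, was 12.1-fold and the potassium channel gene Kcnc2 15.7-fold higher, both within the control range in ES-GFP- cells, where Gabra2 falls to 7.90-fold and Kcnc2 to 3.15-fold with the control floor. Cnr1, the cannabinoid receptor, was 4.66-fold and the kainate receptor subunit Grik3 4.31-fold higher. In the other direction, Chrna4, a nicotinic receptor subunit, read 809.7 in MGE-GFP+ and 9133 in ES-GFP- cells, 7.70-fold lower, and the calcium channel subunit Cacna2d1 read 196 and 5071, 17.7-fold lower.

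Genes of the floor plate, midbrain, hindbrain and spinal cord were bright in ES-GFP- and mostly near background in MGE-GFP+ cells. Of 53 listed, 37 were included, 34 were lower in MGE-GFP+ cells and 28 at least 4-fold lower, beside 7.35% of all included genes. Of these 28, 24 were within the control range on the MGE-GFP+ array. The median log2 difference was -4.51, and it was -1.97 with the control floor and -0.83 over the 11 genes above the controls on both arrays. Since the ES-GFP- array was above the controls for all 37 and the MGE-GFP+ array for 11, most of these genes were included through the ES-GFP- value alone, and the counts are a description of that value.

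Genes that together mark serotonergic neurons of the hindbrain were bright in ES-GFP- cells. Gata3, a zinc-finger factor of hindbrain and spinal neurons, read 4.02 in MGE-GFP+ and 9762 in ES-GFP- cells, at least 552-fold lower, or 43.9-fold with the control floor. Slc6a4, the serotonin transporter, read 5.74 and 6037, at least 341-fold lower and 27.1-fold with that floor. Fev (Pet1), the factor of serotonergic identity, read 52.9 and 6846 and was 88.4-fold lower. These were all inside the control range in MGE-GFP+ cells. Tph2, which makes serotonin in neurons, read 16.6 and 1876, 77.2-fold lower. Gata2 was at least 174-fold lower, Lmx1b, which acts with Fev, 5.41-fold lower and Slc18a2, the vesicular monoamine transporter, 10.8-fold lower.

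Other ventral and caudal fates were represented as well. Foxa2, the forkhead factor of the floor plate, read 5.0 in MGE-GFP+ and 1614 in ES-GFP- cells, at least 91.3-fold lower, and Foxa1 was at least 104-fold lower. Lmx1a, of the midbrain floor plate and roof plate, was 47.4-fold lower and Spon1 (F-spondin), a floor plate protein, read 741 and 18695, 17.2-fold lower. Irx3, of the caudal forebrain to the spinal cord, read 2.89 and 4794, at least 271-fold lower. Tal1, of blood and of GABAergic neurons in the midbrain to spinal cord, was 62.8-fold lower. The exceptions in the list were Gbx2, described above, and Nr4a2, which was 2.88-fold higher, while Shh read 2267 and 2961 and Th, the dopamine pathway enzyme, 1554 and 3494.

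Of 39 Hox genes listed, 10 were included, 9 were lower in MGE-GFP+ cells and 6 at least 4-fold lower, all 6 within its control range. The median was -3.41, and it was -1.08 with the control floor and -0.16 over the 3 genes above the controls on both arrays. The 6 were Hoxa2, Hoxa3, Hoxa4, Hoxb2, Hoxb3 and Hoxb4, members of the paralogue groups expressed in the hindbrain. Hoxa3 read 8.67 and 1491, at least 84.3-fold lower, and Hoxb2 8.02 and 1108, at least 62.7-fold lower. The included Hox genes of higher number, Hoxa7 and Hoxa13, differed by under 2-fold.

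**Figure D4:**
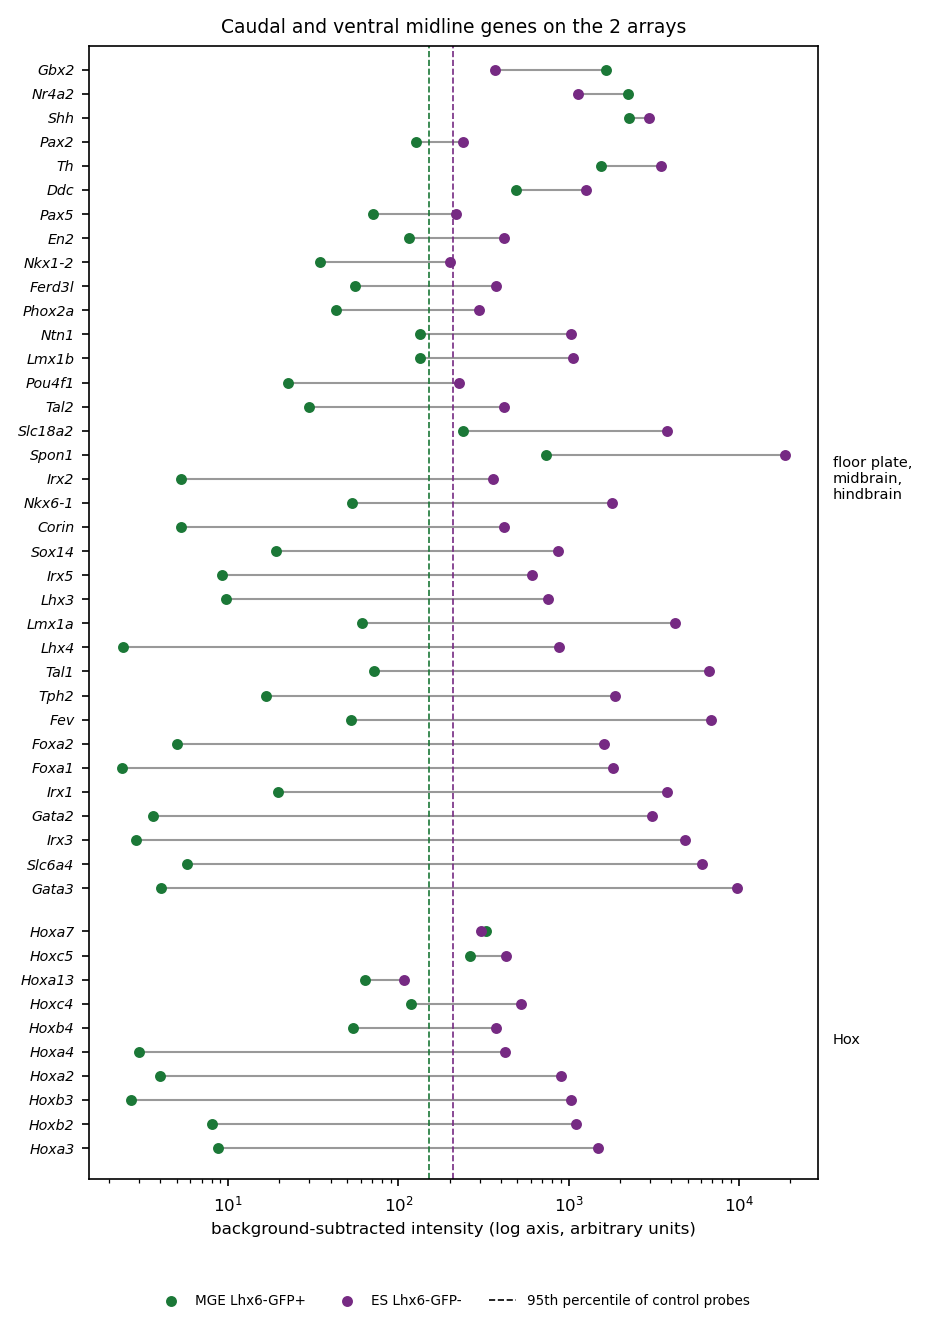
Intensities of included floor plate, midbrain, hindbrain and Hox genes on the MGE-GFP+ array (green) and the ES-GFP- array (purple), on a log axis, with the 95th percentile of the control probes of each array as a dashed line. Most green points lie left of the green line and nearly all purple points right of the purple line. Gata3 spans from 4.02 to 9762. A few included members are not drawn.

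Hypothalamic and retinal genes leaned the same way. Of 45 listed, 25 were included, 17 were lower in MGE-GFP+ cells, 11 at least 4-fold lower and 2 at least 4-fold higher, with a median of -1.57. Of the 11, 10 were within the control range on the MGE-GFP+ array, and the median was -0.57 with the control floor and -0.23 over the 10 genes above the controls on both arrays. Lhx1 read 539 and 6279.5 and was 7.95-fold lower, above the controls on both arrays. Sox14 was 31.3-fold and Hmx3 23.3-fold lower, both within the control range in MGE-GFP+ cells. Vax2, a factor of the ventral eye and ventral forebrain, read 18794 and 25958, a log2 difference of 0.08, under 2 SDs of the repeat spots.

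Genes of radial glia and neural stem cells were mostly lower in MGE-GFP+ cells. Of 35 listed, 33 were included, 29 were lower and 18 at least 4-fold lower, 10 of those within the control range in MGE-GFP+ cells. The median was -2.05, and -1.35 with the control floor. Slc1a3 (GLAST), the glutamate transporter of radial glia and astrocytes, read 30.4 in MGE-GFP+ and 2338 in ES-GFP- cells, 52.5-fold lower. Vim (vimentin) read 1181 and 17267, 9.99-fold lower, and Fabp7 (BLBP) 1841 and 14150, 5.25-fold lower. Nes (nestin) was 3.40-fold and Sox9 4.13-fold lower, whereas Sox2 read 2147 and 3026, a log2 difference of 0.06. A stem cell gene that went the other way was Nr2e1 (Tlx), a nuclear receptor of forebrain and retinal stem cells, which read 774 in MGE-GFP+ and 49.5 in ES-GFP- cells and was 22.9-fold higher, with the ES-GFP- value inside the control range.

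The Notch pathway, which holds progenitors undifferentiated, followed the stem cell genes. Of 34 proneural and Notch genes listed, 26 were included, 23 were lower, 9 at least 4-fold and 0 at least 4-fold higher, with a median of -1.43. Of the 9, 6 were within the control range in MGE-GFP+ cells, and the median was -0.86 with the control floor. Among receptors, Notch3 read 169.7 and 6836, 27.5-fold lower, Notch1 was 5.29-fold and Notch2 7.84-fold lower. Among ligands, Jag1 was 6.63-fold, Dll3 2.56-fold and Dll1 2.33-fold lower. Among targets, Hes5 read 2923 and 12189, 2.85-fold lower, and Hes1 30.4 and 610.3, 13.7-fold lower with the MGE-GFP+ value in the control range, while Hey1 read 4617 and 8247, a log2 difference of -0.29 that was 0.02 after scaling to the 50th percentile.

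Cell cycle genes were lower in MGE-GFP+ cells by less. Of 44 listed, 38 were included, 34 were lower, and the median was -1.17, or -0.85 with the control floor. At least 4-fold lower were 4 of the 38, 2 of them within the control range in MGE-GFP+ cells, beside 7.35% of all included genes, so the list is described by its median and not by that count. Mki67, the Ki67 antigen of cycling cells, read 539.9 and 2129, 2.69-fold lower, and Top2a 63.1 and 401, 4.34-fold lower. The cyclins Ccnd1 and Ccnd2 were 5.27-fold and 6.09-fold lower. Members of the replication machinery were closer, with Pcna at 2087 and 2186, 1.40-fold higher, and Mcm4 at 3154 and 3977, under 2 SDs of the repeat spots.

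The genes that brake the cycle did not move as a block. Of 17 cell cycle exit genes listed, 14 were included, 6 were higher and 8 lower, with a median of -0.59 that was 0.25 over the genes above the controls on both arrays. Ccng2 read 1654 and 579, 4.18-fold higher. Cdkn1a (p21), a target of p53, read 75.9 and 2105, 18.9-fold lower, and Gadd45g, a differentiation and stress gene, was 6.45-fold lower. Cdkn1b (p27) read 6859.5 and 11536, under 2 SDs.

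Glial genes were mostly lower in MGE-GFP+ cells. Of 21 astrocyte genes listed, 16 were included, 15 were lower and 10 at least 4-fold lower, 6 of those within the control range in MGE-GFP+ cells. The median was -3.07, and it was -2.35 with the control floor and -1.92 over the 10 genes above the controls on both arrays. Sparcl1 (hevin), a protein of radial glia and astrocytes, read 14.0 in MGE-GFP+ and 8233 in ES-GFP- cells, 401-fold lower, but its MGE-GFP+ value lay within the control range and the difference was 37.0-fold with the control floor. Apoe read 397 and 5231, 9.0-fold lower, and Aldh1l1, the folate enzyme used as an astrocyte marker, was 29.3-fold lower. Of 21 oligodendrocyte lineage genes, 14 were included, 12 were lower and 9 at least 4-fold, 7 of those within the control range in MGE-GFP+ cells. The median was -2.18, and it was -1.26 with the control floor and -0.64 over the 6 genes above the controls on both arrays. Olig2 read 623 and 4117, 4.51-fold lower and above the controls on both arrays. Sox10 read 30.3 and 1422, 32.0-fold lower, and Olig1 was at least 40.8-fold lower. Pdgfra, a defining gene of oligodendrocyte precursors, was in the control range on both arrays and was not included.

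Hedgehog pathway genes did not share 1 direction. The culture was given a hedgehog agonist, and its part in these values was not tested. Of 19 genes listed, 16 were included, 6 at least 4-fold lower in MGE-GFP+ cells and 0 at least 4-fold higher. All 6 were within the control range on the MGE-GFP+ array. The median of -0.69 was -0.08 with the control floor and 0.09 both over the genes above the controls on both arrays and with the brightest probe of each gene. Gli1, the transcriptional target that reports pathway activity, read 28.3 in MGE-GFP+ and 1133 in ES-GFP- cells, 27.4-fold lower, Gli2 was at least 43.1-fold lower and the target Hhip at least 9.87-fold lower. With the control floor the log2 differences were -2.35 for Gli1 and -1.78 for Gli2. Other members below 4-fold included the coreceptor Cdon at 559 and 399, 2.05-fold higher, and the repressor-forming factor Gli3 at 187 and 465, 1.70-fold lower. The coreceptors Boc and Gas1 had log2 differences of 0.21 and -1.01, the latter 0.27 with the brightest probe. The ligand Shh was near equal.

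Wnt and BMP genes were on the whole lower in MGE-GFP+ cells. Of 51 listed, 29 were included, 23 were lower, 13 at least 4-fold and 0 at least 4-fold higher, with a median of -1.16. Of the 13, 11 were within the control range in MGE-GFP+ cells, and the median was -0.76 with the control floor and -0.39 over the 11 genes above the controls on both arrays. Dkk3, of the Dickkopf family, read 66.1 and 3739.9, 38.6-fold lower. The Wnt inhibitor Sfrp2 was 15.4-fold and the ligand Wnt7b 9.08-fold lower, Lef1 was at least 21.4-fold lower, and the BMP ligand Bmp7 25.8-fold lower, all within the control range in MGE-GFP+ cells. Axin2, a general target of Wnt signalling, read 89.4 and 125, within or close to that range on both arrays.

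Of 35 FGF and retinoic acid genes, 21 were included, and 3 were at least 4-fold lower and 0 at least 4-fold higher, beside 7.35% and 1.85% of all included genes. The median of -0.20 turned to 0.10 after scaling to the 50th percentile. Cyp26b1, which degrades retinoic acid, read 81.7 in MGE-GFP+ and 4134 in ES-GFP- cells, 34.6-fold lower. Fgfr3, a receptor of ventricular zone cells, read 911 and 5810.3, 4.35-fold lower.

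Included genes of the undifferentiated ES state were mostly lower in MGE-GFP+ cells. Of 29 pluripotency genes listed, 21 were included, 17 were lower in MGE-GFP+ cells and 10 at least 4-fold lower, 9 of these within its control range, with a median of -1.85 that was -0.73 with the control floor. All 21 were above the controls in ES-GFP- and 8 in MGE-GFP+ cells, so most were included through the ES-GFP- value alone. Pou5f1 (Oct4) read 59.2 in MGE-GFP+ and 612 in ES-GFP- cells, 7.06-fold lower, or 2.75-fold with the control floor. Esrrb read 23.0 and 683, 20.3-fold lower. Dppa5a, a gene of ES and germ cells, read 39.2 and 4732, 82.4-fold lower. The single probe of Nanog was very bright on both arrays, at 225110 and 251130, a log2 difference of 0.39 that fell below 0 in the deposited values and with quantile normalization. It made up most of the summed intensity of the list, 227270 in MGE-GFP+ and 264170 in ES-GFP- cells. What this probe measured was not tested, and its brightness is not taken as the level of Nanog RNA.

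Genes of the extracellular matrix were mostly brighter in ES-GFP- cells. Of 58 listed, 40 were included, 34 were lower in MGE-GFP+ cells and 27 at least 4-fold lower, 21 of them within its control range. The median was -2.91, and it was -1.45 with the control floor and -0.23 over the 17 genes above the controls on both arrays. Sparc, a matrix glycoprotein, read 183 and 16796, 62.6-fold lower, and Igfbp5, which binds insulin-like growth factors, 347 and 32200, 63.3-fold lower, both above the controls on both arrays. The basement membrane chains Col4a1, Lamb1 and Lama1 were 25.2-fold, 18.2-fold and 9.72-fold lower. Vcan (versican), a proteoglycan of embryonic brain, was instead 1.77-fold higher in MGE-GFP+ cells, at 1322 and 1094.

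Markers of other cell types were measured on both arrays. For mesenchyme and pericytes, 12 of 25 listed genes were included and 8 were at least 4-fold lower in MGE-GFP+ cells, beside 7.35% of all included genes. Summed intensities were 4032 in MGE-GFP+ and 14373 in ES-GFP-. Of the 8, 7 were within the control range on the MGE-GFP+ array. All 12 were above the controls in ES-GFP- and 5 in MGE-GFP+, so most were included through the ES-GFP- value alone. The median of -3.775 was -0.84 with the control floor and -0.22 over the 5 genes above the controls on both arrays. The defining genes Col1a1, Col1a2, Col3a1 and Dcn read between 11.8 and 90.2 in MGE-GFP+ and between 253 and 1902 in ES-GFP- cells, and Lum was within the control range on both. For epithelial, endodermal and choroid plexus genes, 13 of 28 were included, 7 were at least 4-fold lower, and the sums were 1880 and 10129, with Ttr, the choroid plexus transport protein, at 2.65 and 778. All 7 were within the control range on the MGE-GFP+ array, where 5 of the 13 were above the controls, compared with all 13 in ES-GFP-. The median of -2.40 was -0.41 with the control floor and -0.10 over the 5 genes above the controls on both arrays. Endothelial genes gave 5 included of 21, with sums of 651 and 2896, and the defining genes Cldn5, Pecam1 and Cdh5 were within the control range on both arrays, whereas Kdr read 467 and 249 and was 2.75-fold higher in MGE-GFP+ cells. The endothelial median of -2.75 was 0.55 over the 2 genes above the controls on both arrays. These lists moved with the matrix genes, some of which they share, and their part in those differences was not tested.

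Globin genes were brighter on the MGE-GFP+ array. Of 19 erythroid genes listed, 10 were included, 5 at least 4-fold higher, with a median of 2.22, or 0.39 with the control floor. Hbb-y, an embryonic beta globin, read 5629 in MGE-GFP+ and 13.3 in ES-GFP- cells, at least 318-fold higher, and Hba-a1 read 6004 and 538, 16.3-fold higher. Some globin genes, such as Hba-a1 and Hba-a2, are near-identical copies whose probes may share RNA. Over the 5 included globins the intensities summed to 13276 in MGE-GFP+ and 593 in ES-GFP- cells. The whole erythroid list summed to 379460 and 331600, most of it from the single probe of Hemgn at 365520 and 329510. Hbb-bh1 was within the control range on both arrays, and Klf1 was 4.27-fold lower in MGE-GFP+ cells. Of 24 microglial and leukocyte genes, 7 were included, 5 higher and 2 lower in MGE-GFP+ cells. The median was 0.54, or 0.27 with the control floor. Sums of intensity before scaling were 2812 in MGE-GFP+ and 4101 in ES-GFP- cells. Ctss had a log2 difference of at least 4.67, or 1.12 with the control floor. Csf1r read 398 and 399.9, a log2 difference of 0.54. Aif1 read 163 and 73.1, a log2 difference of 1.71, or 0.20 with the control floor. Cx3cr1 and Tyrobp were within the control range on both arrays.

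Oxygen-responsive and glycolytic genes were lower in the cells taken from the embryo than in those from the aggregates. Of 41 hypoxia and glycolysis genes listed, 38 were included, 32 were lower in MGE-GFP+ cells, 15 at least 4-fold and 0 at least 4-fold higher, with a median of -1.67, and -0.86 with the control floor. Of the 15, 9 were within the control range on the MGE-GFP+ array. Among all included genes 7.35% were at least 4-fold lower. Egln3 (PHD3), a prolyl hydroxylase and a well-known target of hypoxia-inducible factors, read 6.92 in MGE-GFP+ and 2985 in ES-GFP- cells, at least 146-fold lower, or 13.4-fold with the control floor. Ldha, which makes lactate, read 1059 and 16118, 10.4-fold lower. The glucose transporters Slc2a1 and Slc2a3 were 9.79-fold and 10.1-fold lower, and Vegfa, the vascular growth factor, 5.88-fold lower, all above the controls on both arrays. Other glycolytic enzymes leaned the same way, with Tpi1 6.13-fold, Eno1 3.29-fold, Aldoa 3.28-fold and Gapdh 1.36-fold lower. Pkm, read at 7666 and 7398, was 1.52-fold higher.

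Stress response genes were also lower in MGE-GFP+ cells. Of 32 listed, 30 were included, 28 were lower, 10 at least 4-fold and 0 at least 4-fold higher, with a median of -1.20, or -1.04 with the control floor. Of the 10, 5 were within the control range in MGE-GFP+ cells, among them Hspa1a, a heat-shock chaperone, 9.91-fold lower, and the transcription factor Cebpb, at least 25.9-fold lower. Several targets of the amino acid response and the integrated stress response were lower as well. Asns (asparagine synthetase) read 404 and 3288, 5.56-fold lower, Psat1 648 and 5192, 5.47-fold lower, and Nupr1 132 and 2526, 13.1-fold lower with the MGE-GFP+ value within the control range. Chac1 was 4.49-fold and Atf3 8.27-fold lower. Atf3 was also within the control range in MGE-GFP+ cells and gave no value with the control floor, so its fold rests on dim signal. The chaperones of the endoplasmic reticulum were closer, with Hspa5 (BiP) at 16991 and 43752, 1.76-fold lower, and Hsp90b1 1.40-fold lower. Atf4 read 6878 and 9882, a log2 difference of 0.03.

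**Figure D5:**
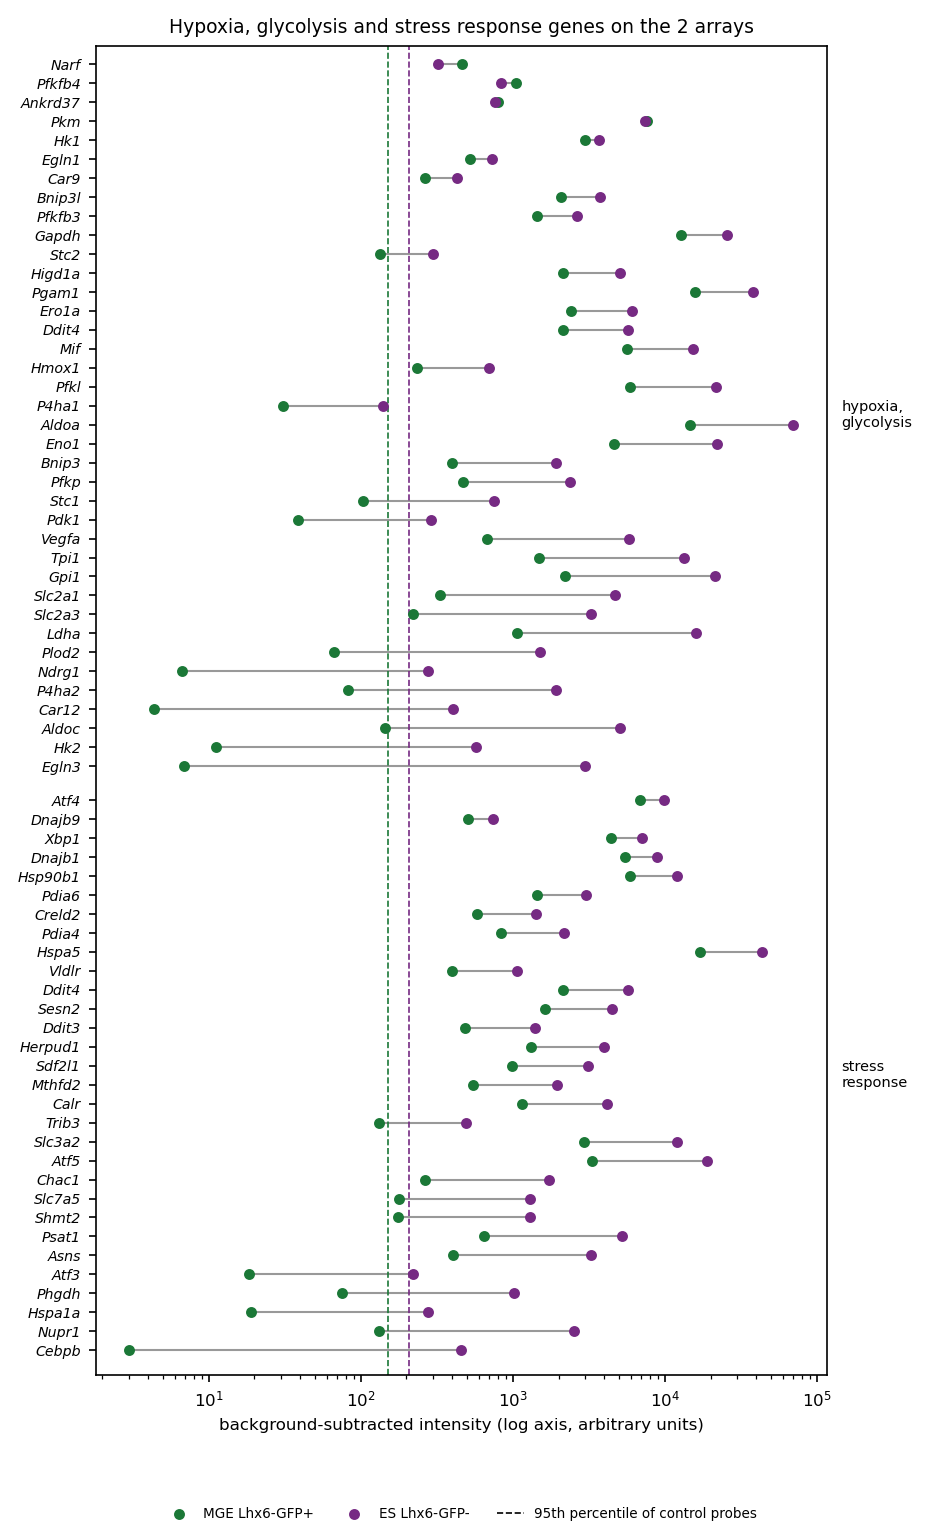
Intensities of included hypoxia, glycolysis and stress response genes on the MGE-GFP+ array (green) and the ES-GFP- array (purple), on a log axis, with dashed lines at the 95th percentile of the control probes of each array. The purple point lies right of the green one for most genes. Egln3 has the widest gap, from 6.92 to 2985, and Ldha runs from 1059 to 16118.

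Promoters of these lists were searched for the core letters that the hypoxia-inducible factors and Atf4 with its C/EBP partners are known to bind. In the 250 bases before the start of each gene, from RefSeq on GRCm38.p6, the letters ACGTG on either strand were found in 18.5% of 27025 genes, and in 17 of the 32 included hypoxia and glycolysis genes with a promoter sequence (53.1%), 6 of 11 among those at least 4-fold lower in MGE-GFP+ cells (54.5%). The letters TGATGNAA on either strand were found in 3.91% of all genes, in 6 of 29 included stress response genes (20.7%) and in 4 of 9 among those at least 4-fold lower (44.4%). The motifs were chosen after the values of the lists were known, and a match describes the sequence and is no site of binding. A share over a whole list does not rest on the differences between the arrays. Members were listed for a known role in hypoxia, glycolysis or stress, so a share above that of all genes is no separate evidence about these cells. For the hypoxia list the share among the lower members was close to that of the whole list. For the stress list, 9 lower genes with a promoter are too few to set against the whole list. Whether these factors act in either population was not tested. The promoters shown were picked only among members with a match. Promoters of 3 members of each list that were lower in MGE-GFP+ cells are shown so that the motif can be seen in its surroundings, written 5′ to 3′ on the strand of the gene, with the match to ACGTG, read on either strand, in capitals for the hypoxia genes and the match to TGATGNAA in capitals for the stress genes. They lie at chr12:54203875-54204124 on the minus strand for Egln3, chr6:82774455-82774704 on the minus strand for Hk2 and chr11:54100674-54100923 on the plus strand for P4ha2. The stress gene promoters lie at chr7:126625471-126625720 for Nupr1, chr1:191183334-191183583 for Atf3 and chr6:7693210-7693459 for Asns, all on the minus strand.
Egln3: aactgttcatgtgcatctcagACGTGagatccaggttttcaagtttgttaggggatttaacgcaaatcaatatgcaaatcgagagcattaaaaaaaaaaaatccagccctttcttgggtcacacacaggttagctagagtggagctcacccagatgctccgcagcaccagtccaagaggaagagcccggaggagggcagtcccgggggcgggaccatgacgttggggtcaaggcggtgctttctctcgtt
Hk2: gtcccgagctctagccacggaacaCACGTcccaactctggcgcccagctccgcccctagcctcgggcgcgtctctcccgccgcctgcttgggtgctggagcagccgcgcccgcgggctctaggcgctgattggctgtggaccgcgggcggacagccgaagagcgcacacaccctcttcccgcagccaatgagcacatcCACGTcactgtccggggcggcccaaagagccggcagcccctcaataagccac
P4ha2: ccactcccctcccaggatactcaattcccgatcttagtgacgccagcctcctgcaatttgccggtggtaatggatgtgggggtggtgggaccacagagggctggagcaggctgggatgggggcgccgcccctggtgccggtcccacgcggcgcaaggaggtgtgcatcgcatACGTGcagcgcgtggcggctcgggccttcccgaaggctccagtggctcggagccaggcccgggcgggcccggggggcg
Nupr1: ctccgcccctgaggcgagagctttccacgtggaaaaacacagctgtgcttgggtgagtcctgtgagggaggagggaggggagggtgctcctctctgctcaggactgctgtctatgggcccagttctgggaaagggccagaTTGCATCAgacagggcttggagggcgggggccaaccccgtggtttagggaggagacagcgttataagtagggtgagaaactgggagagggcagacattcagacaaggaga
Atf3: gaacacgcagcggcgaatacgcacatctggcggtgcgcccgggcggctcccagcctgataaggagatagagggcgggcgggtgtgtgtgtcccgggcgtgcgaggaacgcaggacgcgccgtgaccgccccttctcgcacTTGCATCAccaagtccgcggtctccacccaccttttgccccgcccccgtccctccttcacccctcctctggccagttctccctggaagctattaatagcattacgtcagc
Asns: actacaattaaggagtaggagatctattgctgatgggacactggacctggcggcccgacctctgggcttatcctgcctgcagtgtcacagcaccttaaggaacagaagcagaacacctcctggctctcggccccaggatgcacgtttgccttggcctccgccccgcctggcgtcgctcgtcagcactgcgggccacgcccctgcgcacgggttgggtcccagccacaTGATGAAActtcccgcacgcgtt

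The Hk2 window holds ACGTG letters at 2 places and the other windows shown hold their motif at 1. Hk2 (hexokinase 2) read 11.1 in MGE-GFP+ and 569 in ES-GFP- cells, at least 32.2-fold lower, and P4ha2, a collagen prolyl hydroxylase subunit, 82.7 and 1937, 16-fold lower. With the control floor these values were 2.56-fold and 8.71-fold. Among the stress genes, Asns was above the controls on both arrays, while Nupr1 and Atf3 were within their range in MGE-GFP+ cells. Atf3 gave no value with the control floor.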

How the data were processed

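RNA was labelled with 1 dye, Cy3. For this step the paper gives whole transcriptome amplification and another maker's labelling kit, while the labels name a low-input amplification kit and a smaller array format than the number of spots in the files gives. The authors deposited Agilent Feature Extraction files, version 10.7.3.1 per the file headers, with 1 background-subtracted and detrended intensity per spot, not scaled between arrays. They also deposited log2 values of unstated normalization, which lay within 0.212 (MGE-GFP+) and 0.315 (ES-GFP-) of quantile-normalized log2 median intensity, with column medians of 7.69 and 7.68, and which were used as an alternative.

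Outlier-flagged spots were dropped (98 on the MGE-GFP+ and 137 on the ES-GFP- array), 0 spots were saturated, and repeat spots were averaged on the log2 scale. Each array's 75th percentile over mouse probes was subtracted, and probes that were not well above background on a share of at least 0.5 of their spots were raised to the array's lowest well-above value, an intensity of 12.1 in MGE-GFP+ and 17.8 in ES-GFP-. Such a gene's fold is a bound: for several probes, the mean over probes, with those not well above background at this floor. A gene's difference is the mean over its probes. Accessions were matched to RefSeq genes, which named 26576 of 55681 probes. The number of arrays limits the precision. With 1 array per side no test was run and differences of 4-fold or more were counted.

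Named genes are list members, the 20 highest and 20 lowest genes well above background on both arrays with the same sign over probes and in the deposited values, the 20 largest bounds, and genes with probes at least 4-fold apart in sign. A few list members count in the totals and medians but are not reported here by name. The lists, the named genes and the comparison were chosen with earlier results of these data known. Of 11 alternatives, normexp used median spot and background signals, since mean signals were not used here. The steps were tested on simulated data, with Python 3.11.15, pandas 2.3.3, numpy 2.4.6 and limma 3.58.1 in R 4.3.3.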

Additional observations from a re-analysis of the deposited data

How the results depend on the processing

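Against 215 higher and 852 lower genes at 4-fold or more, scaling to the 50th percentile gave 366 higher, normexp background correction 134 higher and 423 lower, median intensities without background subtraction 509 lower, the deposited log2 values 117 higher and 448 lower, the floor at the control probes 340 lower, genes above the controls on both arrays 127 higher and 193 lower, and a 2-fold limit 1313 higher and 1822 lower. The other settings stayed within 1.5 times the counts. List medians reversed to 0.25 for cell cycle exit genes, 0.67 for pallial and glutamatergic genes, 0.094 for hedgehog pathway genes and 0.55 for endothelial genes over genes above the controls on both arrays, and to 0.094 for hedgehog pathway genes with the brightest probe. Of 848 listed or named genes, 663 had a difference past 2 SDs of the repeat spots and 650 of these kept their sign under every alternative that gave a value, as did all 276 of those that differed at least 4-fold. The cause of these changes was not tested, except that a higher floor or intensities without subtraction shrink folds of dim genes by construction. No paired analysis was possible because each group has 1 array. Genes under an intensity of 152 in MGE-GFP+ or 208 in ES-GFP- cells cannot be ordered from these arrays.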

Other observations

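Several gene groups outside neural identity were close between the arrays. Of 44 oxidative phosphorylation genes listed, 44 were included, 0 differed at least 4-fold, and the median log2 difference was 0.14. Ribosomal protein genes were lower in MGE-GFP+ cells as a group, with 39 of 41 included genes lower, 0 at least 4-fold, and a median of -0.57, or -0.27 after scaling to the 50th percentile. Cholesterol synthesis genes had a median of 0.03 over 29 included genes (-0.09 after quantile normalization), and Idi1, an isomerase of the pathway, read 1228 in MGE-GFP+ and 449 in ES-GFP- cells, 4.00-fold higher. Chromatin genes had a median of 0.37 over 31 included genes, with Ezh2, the Polycomb methyltransferase, at 2474 and 849.6, 4.26-fold higher, and the high mobility group gene Hmga2 at 154 and 915, 4.05-fold lower. Cadherin and protocadherin genes had a median of 0.03 over 23 included genes (-0.08 after quantile normalization), with Pcdh17 3.20-fold higher and Pcdh18 8.94-fold lower, the latter within the control range in MGE-GFP+ cells.

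Imprinted genes split evenly, with 17 of 34 included genes higher and 17 lower and a median of 0.04. Igf2, a fetal growth factor, read 4.31 in MGE-GFP+ and 16756 in ES-GFP- cells, at least 948-fold lower and 75.3-fold lower with the control floor. Dlk1 was 4.18-fold and Grb10 5.02-fold lower, both above the controls on both arrays. Of 24 included immediate early genes, 17 were lower in MGE-GFP+ cells, with a median of -0.90, or -0.64 with the control floor. Fos read 1609.5 and 2694, a difference of -0.19 on the log2 scale (0.11 with 50th percentile scaling), whereas Fosb was 3.82-fold and Ccn2 26.1-fold lower, the latter within the control range in MGE-GFP+ cells.

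Among genes in none of the lists, Kctd8, which encodes an auxiliary subunit of the GABA-B receptor, read 816 in MGE-GFP+ and 30.1 in ES-GFP- cells, 39.7-fold higher with the ES-GFP- value inside the control range, as was Pde1a, a phosphodiesterase, 14.3-fold higher. Neto1, an auxiliary protein of kainate receptors, read 2166 and 241, 13.2-fold higher. On the other side, Anxa2 (annexin A2) read 18.9 and 3307, 119.7-fold lower, Ptx3, a pentraxin, was 109-fold lower, and Vtn (vitronectin) at least 152-fold lower. All of these were within the control range in MGE-GFP+ cells, and with the control floor Anxa2 was 14.9-fold, Ptx3 18.8-fold and Vtn 12.0-fold lower. Fam205a2 was the only included gene with probes at least 4-fold different in opposite directions, with log2 differences from -2.33 to 3.09, so its mean of 0.68 has no direction.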
